A study of Mus musculus with 9 samples.

Results

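The 9 genes described here encode the factors that make up activator protein 1 (AP-1) and 2 partners, *Atf3* and *Maff*. They were found by their symbols among the 43346 genes of the deposited table. The FOS family was represented by *Fos*, *Fosb*, *Fosl1* and *Fosl2*, and the JUN family by *Jun*, *Junb* and *Jund*. Of the 9 genes, 8 had enough counts to be tested with 15024 genes in all. *Fosl1* did not, with 0 counts in 7 of the 9 livers and 1 and 7 counts in the other 2.

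Whole liver of C57/BL6 mice (C57BL/6J per the methods) aged 12 weeks was profiled by RNA-Seq in 3 groups of 3 samples, and per the methods the mice were male. Vehicle (normal saline) or NSC-87877 (NSC), a small molecule inhibitor of the phosphatase SHP2 that also inhibits SHP1, was given around a 70% partial hepatectomy. NSC was injected at 7.5 mg/kg per dose with 2 doses per day, the first one 12 h before surgery by the sample labels and 1 day before by the methods. The groups were resected liver of vehicle-treated mice (0 h, the baseline), remnants of vehicle-treated mice at 40 h, and remnants of NSC-treated mice at 40 h. The 3 baseline specimens served both 40 h groups, and resected liver of NSC-treated mice was not analysed here. It is not stated whether a specimen and a remnant with the same number came from 1 mouse. The study describes the 3 samples of a group as biological replicates, and the labels do not tie them to single mice.

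AP-1 is a dimer of basic leucine zipper (bZIP) proteins. FOS proteins pair with JUN proteins, whereas JUN proteins can also pair with each other, and the dimers bind the TPA response element (TRE) or the related cyclic AMP response element (CRE). *Fos*, *Jun*, *Junb* and *Atf3* are immediate early genes, transcribed within minutes of growth factor, cytokine or stress signals without new protein synthesis. In the rodent liver they are known for a burst in the first hours after hepatectomy, long before the 40 h studied here.

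The bases before the transcription start are shown for 4 genes: *Fos* and *Junb*, the 2 members that rose in vehicle remnants, *Jun*, whose promoter carries variant AP-1 sites of its own, and *Atf3*, the member that varied most between livers. Each line gives the 250 bases up to the start, 5′ to 3′ on the strand of the gene, from RefSeq on GRCm38.p6, and capitals mark the motifs searched. *Fos* lies at chr12:85473640-85473889 on the plus strand, *Junb* at chr8:84978749-84978998, *Jun* at chr4:95052223-95052472 and *Atf3* at chr1:191183334-191183583 on the minus strand. The counted *Atf3* gene spans chr1:191170296-191218039. Its window thus precedes a start inside the gene, and the gene's outermost 5′ end was not searched.
Fos: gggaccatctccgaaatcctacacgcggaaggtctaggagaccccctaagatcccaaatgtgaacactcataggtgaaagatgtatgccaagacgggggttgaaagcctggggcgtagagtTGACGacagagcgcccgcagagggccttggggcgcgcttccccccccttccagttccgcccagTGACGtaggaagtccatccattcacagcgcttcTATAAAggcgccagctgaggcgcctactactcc
Junb: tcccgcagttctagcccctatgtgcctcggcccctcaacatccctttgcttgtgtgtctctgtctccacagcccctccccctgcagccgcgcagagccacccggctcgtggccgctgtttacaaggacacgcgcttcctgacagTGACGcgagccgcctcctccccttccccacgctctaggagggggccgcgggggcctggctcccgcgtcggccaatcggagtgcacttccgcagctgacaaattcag
Jun: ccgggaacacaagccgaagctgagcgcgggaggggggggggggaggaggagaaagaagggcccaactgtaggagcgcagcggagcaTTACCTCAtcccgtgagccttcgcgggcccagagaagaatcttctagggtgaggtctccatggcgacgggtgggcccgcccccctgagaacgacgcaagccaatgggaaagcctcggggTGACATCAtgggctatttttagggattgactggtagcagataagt
Atf3: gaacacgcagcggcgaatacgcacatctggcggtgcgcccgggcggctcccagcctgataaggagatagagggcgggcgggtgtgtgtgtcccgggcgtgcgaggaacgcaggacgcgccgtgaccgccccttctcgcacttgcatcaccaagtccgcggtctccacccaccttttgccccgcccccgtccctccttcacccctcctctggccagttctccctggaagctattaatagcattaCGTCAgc

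Both strands were searched for the TRE (TGACTCA or TGAGTCA), the CRE (TGACGTCA), its core (TGACG or CGTCA, which lies within the CRE), the *Jun* variants TGACATCA and TTACCTCA, the TATA box TATAAA and the SRF-binding CArG box. The *Fos* promoter held CRE cores starting at -129 and -66 from the start and TATAAA at -33. The *Junb* promoter held 1 core at -106 and that of *Atf3* 1 core at -7. In the *Jun* promoter TTACCTCA stood at -164 and TGACATCA at -45. Among 32851 RefSeq promoters cut to the same 250 bases, 17.765% held the core, 2.928% held TGACATCA, 0.728% held TTACCTCA and 12.368% held TATAAA. A *Fosb* promoter had a core at -60, and of 3 *Maff* promoters 1 held the full CRE at -29, a motif in 1.546% of promoters, and another held a core at -122 and TGACATCA at -45. No motif was found in the windows of *Fosl2* and *Jund*, and no TRE (4.463% of promoters) or CArG box (1.467%) in any window of the members. Sites more than 250 bases before the start were not searched, so a motif missing here may lie further upstream. No promoter of *Fosl1* was searched. These matches describe the sequence, and binding was not measured.

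Libraries held 23997363 to 42887589 counts on genes. A count of 3, taken as the floor of detection, was 0.070 to 0.125 CPM (counts scaled to a common library size), and such floors cover counting error only. The 10 most abundant genes took 19.0% to 29.0% of the counts of a library. Hepatocyte markers summed to 118891 to 128547 CPM at baseline, 95474 to 132223 in vehicle remnants and 97258 to 124506 in NSC remnants, so hepatocyte transcripts were abundant in every library. Levels below are CPM after scaling by TMM factors, except where FPKM, which are also divided by transcript length, are named. A gene is said to have risen or fallen only when edgeR's quasi-likelihood test gave a Benjamini-Hochberg adjusted p under 0.05 over the 15024 genes.

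*Fos* and *Junb* were the members that rose in remnants of vehicle-treated mice, 10.4-fold and 3.81-fold, where 12.7% of all tested genes rose. In remnants of NSC-treated mice neither passed the test against baseline, and *Jund* was the only member that fell. Between the 40 h groups all 8 tested members were lower with NSC, by 1.48-fold for *Jund* to 7.90-fold for *Fosb*, and 0 passed edgeR's quasi-likelihood test, as against 6 of 15024 genes (0.0399%). At an unadjusted p under 0.05 there were 5 members, all lower, as were 10.2% of all genes. DESeq2 called 3 members and 5.05% of all genes, and edgeR's exact test 3 members and 3.07%.

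**Figure D1:**
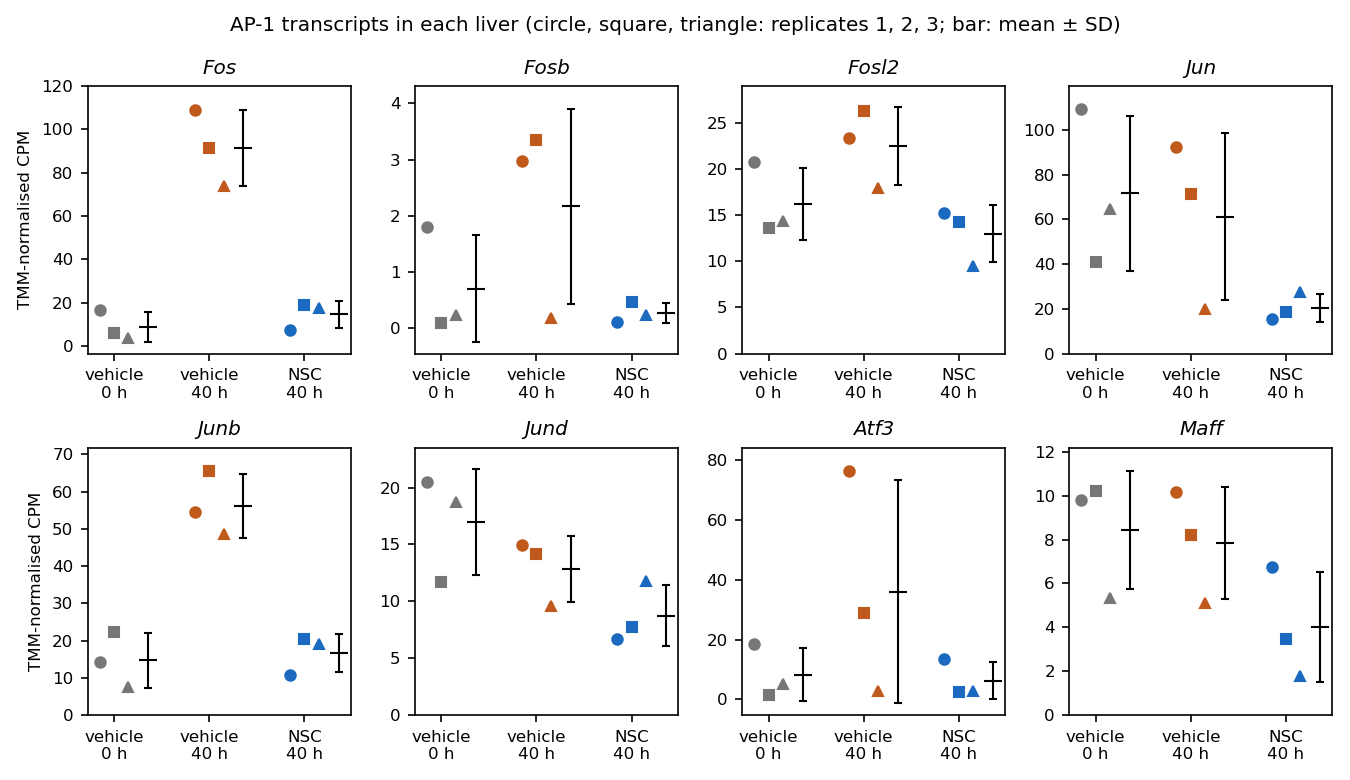
Level of each tested member in CPM (linear axis, own scale per gene) in the 3 livers of each group, with the group mean ± SD beside the points. *Fos* and *Junb* lie higher in all 3 vehicle remnants than in every other liver, whereas *Jun*, *Fosb* and *Atf3* spread widely within the vehicle groups.

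*Fos* encodes the founding FOS protein, which cannot pair with itself and needs a JUN partner. It was measured at 16.6, 6.05 and 3.63 CPM in baseline replicates 1, 2 and 3. In vehicle remnants it stood at 109, 91.6 and 74.1 CPM, and in NSC remnants at 7.41, 19.0 and 17.5 CPM. The vehicle remnants lay above all 6 other livers, whereas the NSC remnants and the baseline specimens overlapped. Group means were 8.77 ± 6.93, 91.6 ± 17.5 and 14.7 ± 6.32 CPM (SD, n = 3 each).

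In vehicle remnants *Fos* was higher than at baseline by 3.38 ± 0.62 on the log2 scale (SE, edgeR adjusted p = 0.00734). Without baseline replicate 1, the highest of that group, this became 4.24. In NSC remnants the log2 fold change from baseline was 0.74 ± 0.58 (edgeR adjusted p = 0.362). That result also turned on baseline replicate 1: without it the value was 1.59 and passed (edgeR adjusted p = 0.0240). Between NSC and vehicle remnants the log2 fold change was -2.65 ± 0.59 (edgeR adjusted p = 0.0992), which is 6.26-fold lower and did not pass. In bulk tissue, fewer cells that express a gene and less RNA per cell cannot be told apart.

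*Fosb*, a FOS paralog that is also an immediate early gene, was scarce. Its raw counts were 57, 3 and 7 at baseline, 119, 129 and 5 in vehicle remnants, and 4, 14 and 6 in NSC remnants. Vehicle remnants 1 and 2 were the livers with the most *Fosb*, at 2.98 and 3.34 CPM, and remnant 3 of the same group stood at 0.185 CPM, within the NSC range of 0.120 to 0.475. None of its comparisons passed, with log2 fold changes of 1.63 ± 1.12 in vehicle remnants (edgeR adjusted p = 0.335), -1.35 ± 1.30 in NSC remnants (0.456) and -2.98 ± 1.25 between them (0.244). The NSC value turned to 0.76 without baseline replicate 1.

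*Fosl1*, which encodes FRA-1 and is itself a known AP-1 target, was at 0 counts in all baseline and all NSC livers. Its highest level, 0.181 CPM in vehicle remnant 2, came from 7 counts, and no fold change is given. *Fosl2* encodes FRA-2, which lacks the strong activation domain of FOS. It was measured at 20.8, 13.7 and 14.4 CPM at baseline, 23.4, 26.3 and 18.0 CPM in vehicle remnants, and 15.2, 14.3 and 9.51 CPM in NSC remnants.

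*Fosl2* thus varied little, and the vehicle remnants lay above the NSC remnants without overlap. Its log2 fold change between them was -0.79 ± 0.23 (edgeR adjusted p = 0.114). Against baseline the values were 0.47 ± 0.22 for vehicle (edgeR adjusted p = 0.145) and -0.32 ± 0.23 for NSC (0.292). Without NSC replicate 1 the difference between the 40 h groups was -0.93 and passed (edgeR adjusted p = 0.0438). That fit called 6.46% of all genes, against 0.0399% with all libraries.

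*Jun* encodes c-JUN, the strongest activator of the JUN family, required for normal hepatocyte cycling after hepatectomy. It was measured at 109, 41.1 and 64.6 CPM at baseline and at 92.5, 71.2 and 19.8 CPM in vehicle remnants. In NSC remnants it stood at 15.2, 18.6 and 27.5 CPM. The NSC remnants lay below every baseline specimen, and vehicle remnant 3 lay inside the NSC range.

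The fitted log2 fold change of *Jun* was -0.23 ± 0.58 in vehicle remnants (edgeR adjusted p = 0.816), and it turned to 0.21 without baseline replicate 1 and to 0.20 without vehicle remnant 3. In NSC remnants it was -1.81 ± 0.60, 3.51-fold lower, and narrowly missed the threshold (edgeR adjusted p = 0.0518). Over the alternatives tried this adjusted p ranged from 0.00172 to 0.162. Without vehicle remnant 3, which is not a sample of either group compared but enters the shared fit and the filter on low counts, the change was -1.81 and passed (0.00705). Between the 40 h groups the value was -1.59 ± 0.60 (edgeR adjusted p = 0.214). Reads of the antisense gene *Junos*, which overlaps *Jun*, numbered 7 to 36 per library, and the strand setting of the counting is not stated.

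*Junb* encodes a weaker activator that can also restrain c-JUN. It was measured at 14.3, 22.4 and 7.56 CPM at baseline, at 54.5, 65.5 and 48.5 CPM in vehicle remnants, and at 10.8, 20.3 and 19.0 CPM in NSC remnants. As with *Fos*, all 3 vehicle remnants stood above the 6 other livers, and the NSC remnants lay within the baseline range. Group means were 14.7 ± 7.42, 56.2 ± 8.62 and 16.7 ± 5.13 CPM (SD, n = 3 each).

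In vehicle remnants *Junb* rose by 1.93 ± 0.37 on the log2 scale (edgeR adjusted p = 0.00619). In NSC remnants the value was 0.18 ± 0.37 (edgeR adjusted p = 0.737), and -0.13 without baseline replicate 3. Between NSC and vehicle remnants the log2 fold change was -1.75 ± 0.37, 3.37-fold lower (edgeR adjusted p = 0.0867).

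*Jund*, the JUN gene that is expressed steadily in resting cells, was measured at 20.5, 11.7 and 18.8 CPM at baseline and 14.9, 14.1 and 9.56 CPM in vehicle remnants. In NSC remnants it stood at 6.69, 7.78 and 11.8 CPM. NSC replicate 3 and baseline replicate 2 were almost level, so these groups overlapped. *Jund* fell in NSC remnants by 0.96 ± 0.27 on the log2 scale, 1.95-fold (edgeR adjusted p = 0.0167). The call was lost without baseline replicate 1 (-0.81, adjusted p = 0.0642), baseline replicate 3 (-0.88, 0.0610) or NSC replicate 2 (-0.88, 0.0662), and after correction for GC content (-0.51, 0.0920). At 67.1% its transcript had the highest GC content of the members, which ranged from 51.9%. In vehicle remnants the value was -0.40 ± 0.26 (edgeR adjusted p = 0.302), and between the 40 h groups -0.56 ± 0.27 (0.272).

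*Atf3* encodes a stress-induced factor of the ATF/CREB family that pairs with JUN proteins. It was measured at 18.4, 1.496 and 5.08 CPM at baseline, at 76.4, 28.8 and 2.73 CPM in vehicle remnants, and at 13.5, 2.58 and 2.78 CPM in NSC remnants. All groups overlapped. The standard error exceeded 1 on the log2 scale in each comparison, with values of 2.12 ± 1.35 in vehicle remnants (edgeR adjusted p = 0.305), -0.39 ± 1.34 in NSC remnants (0.847) and -2.51 ± 1.38 between them (0.358). The NSC value turned to 0.95 without baseline replicate 1.

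*Maff* encodes a small MAF protein, which has a bZIP domain but no activation domain. It was measured at 9.79, 10.2 and 5.35 CPM at baseline, 10.2, 8.19 and 5.13 CPM in vehicle remnants, and 6.75, 3.46 and 1.80 CPM in NSC remnants. NSC remnants 2 and 3 were the lowest livers and remnant 1 lay among the others. The log2 fold change was -0.11 ± 0.44 in vehicle remnants (edgeR adjusted p = 0.888), -1.07 ± 0.45 in NSC remnants (0.0920) and -0.96 ± 0.45 between them (0.272). Without NSC replicate 1 the last 2 values were -1.67 and -1.57 and both passed (edgeR adjusted p = 0.00910 and 0.0448). That fit called 33.7% and 6.46% of all genes in these comparisons.

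**Figure D2:**
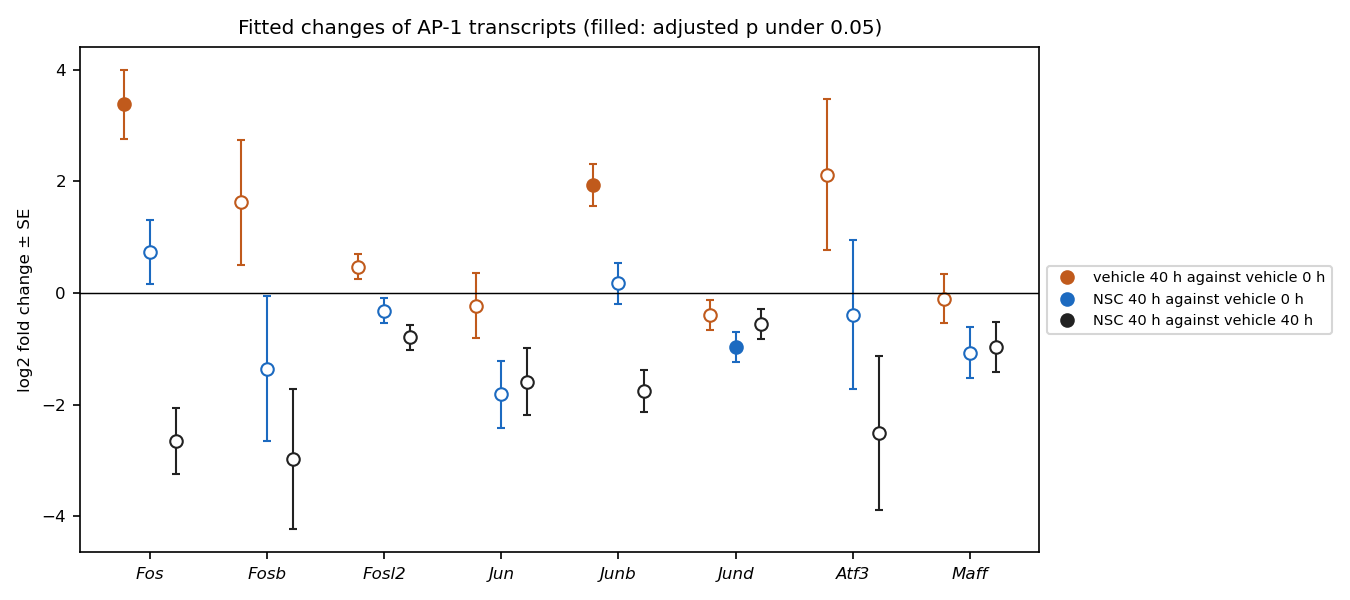
Log2 fold change ± SE of each tested member in the 3 comparisons, where filled points passed edgeR's test at an adjusted p under 0.05. The filled points are *Fos* and *Junb* in vehicle remnants, at 3.38 and 1.93, and *Jund* in NSC remnants, at -0.96, and every black point (NSC against vehicle at 40 h) lies below 0.

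Counted together, 2 of 8 members rose and 0 fell in vehicle remnants, where 23.7% of all tested genes passed in either direction and 12.7% rose. Groups did not overlap, with higher values at 40 h, for 2 of 8 members against 24.2% of all genes. The median log2 fold change of the members was 1.05, and that of all genes 0.013. In NSC remnants 1 of 8 members passed against 34.7% of all genes, and 16.5% of all genes fell. There 6 of 8 members were lower, with a median of -0.68 against 0.013. *Jun* was the member whose groups did not overlap, lower at 40 h, as in 23.1% of all genes. The members' share called was thus close to that of all genes in vehicle remnants. In NSC remnants it was below that share in this fit, whereas DESeq2 called 3 members against 38.1% of all genes and edgeR's exact test 3 against 36.4%, which is again close to the share of all genes. Both comparisons used the same baseline.

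Between NSC and vehicle remnants 0 of 8 members passed edgeR's quasi-likelihood test, which 0.0399% of all genes passed. The median of the members was -1.67 against 0.015 for all genes, and their log2 fold changes lay between the percentiles 0.0465 (*Fosb*) and 9.75 (*Jund*) of all genes tested. At an unadjusted p under 0.05, 5 members were lower (*Fos*, *Fosb*, *Fosl2*, *Jun* and *Junb*), as were 10.2% of all genes. The groups did not overlap, with lower values under NSC, for *Fos*, *Fosl2* and *Junb*, 3 of 8 members against 12.2% of all genes. DESeq2 called 3 members (*Fos*, *Fosl2* and *Junb*) and 758 genes in all, and edgeR's exact test called 3 (*Fos*, *Jun* and *Junb*) and 461. Scaling by library size alone moved the median of all genes by 0.126 in this comparison and by 0.139 between NSC remnants and baseline.

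**Figure D3:**
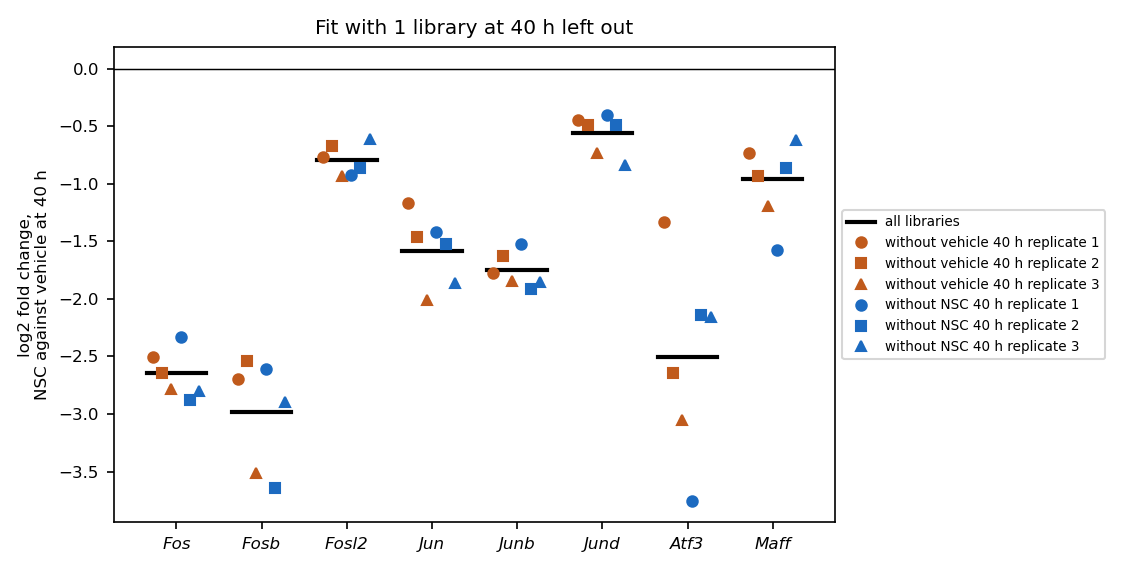
Log2 fold change of each tested member between NSC and vehicle remnants with all libraries (black lines) and with each of the 6 libraries at 40 h left out in turn. All values stay below 0, and *Atf3* moves most, between -1.33 and -3.75.

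Markers of other cell types were set beside these values. Of all tested genes 23.7% passed in vehicle remnants and 34.7% in NSC remnants, in either direction, and 12.7% rose in vehicle remnants. Between the 40 h groups 10.2% of all genes were lower at an unadjusted p under 0.05, DESeq2 called 5.05% and edgeR's exact test 3.07%. All 8 markers of stellate cells and fibroblasts were lower in NSC than in vehicle remnants (median -0.81), with 5 at an unadjusted p under 0.05, 0 past edgeR's quasi-likelihood test, and 4 called by DESeq2 and by edgeR's exact test. Their summed level was 102 to 113 CPM at baseline, 241 to 416 CPM in vehicle remnants and 105 to 233 CPM in NSC remnants, so this sum, like *Fos* and *Junb*, was higher in each vehicle remnant than in every other liver. In vehicle remnants 6 of the 8 rose, among them *Col1a2* (2.52), *Col3a1* (2.96) and *Pdgfrb* (0.88), and in NSC remnants *Col3a1* (1.45) was the 1 that rose.

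Of 8 macrophage markers 7 had higher values in NSC than in vehicle remnants (median 0.73). Of these markers 4 had an unadjusted p under 0.05 in either direction, for which no share of all genes is given here. Past edgeR's quasi-likelihood test there were 0, DESeq2 called 3 and edgeR's exact test 2. Their sums were 122 to 175, 101 to 189 and 196 to 344 CPM in the 3 groups. Against baseline 4 of the 8 were higher and 4 lower in vehicle remnants (median -0.058), where *Marco* (3.39) and *Cd68* (1.04) rose. In NSC remnants 8 of 8 were higher (median 1.04) and 4 rose, led by *Marco* (4.10), *Vsig4* (1.11) and *Timd4* (1.48).

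Neutrophil markers summed to 3.91 to 11.6, 10.2 to 21.4 and 13.9 to 22.0 CPM. Of 6 tested neutrophil markers 1 rose in vehicle remnants, *Retnlg* (2.74), and 3 in NSC remnants, *Retnlg* (3.08), *S100a8* (2.35) and *S100a9* (1.41). *Csf3r* (means of 3.12, 3.33 and 2.90 CPM in the 3 groups), *Cxcr2* (0.40, 0.48 and 0.48) and *Elane* (0.12, 0.40 and 0.34) did not pass. *Mpo* was at no more than 2 counts and *Ly6g* at no more than 8 in a library. Endothelial markers summed to 195 to 209, 126 to 197 and 138 to 246 CPM. Against baseline 7 of 8 were lower in vehicle remnants (median -0.28), where *Oit3* (-0.97) and *Kdr* (-0.92) fell. In NSC remnants 4 were higher and 4 lower (median -0.13), and *Oit3* (-0.75) fell. Between the 40 h groups 6 of 8 were higher with NSC and 2 lower (median 0.35), and 0 passed edgeR's quasi-likelihood test. Cholangiocyte markers summed to 51.2 to 56.6, 86.8 to 128 and 90.2 to 133 CPM. Of these *Krt19* (2.07 and 0.99), *Krt7* (2.77 and 1.75) and *Spp1* (1.14 and 1.35) rose in both 40 h groups. Of the hepatocyte markers *Tat* fell in both (-1.25 and -1.93) and *Cps1* in NSC remnants (-1.25). The part of these cells in the AP-1 values was not tested.

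The level of the members within a liver did not follow the group labels in every library. The median over the 8 members of log2 CPM, each gene centred on its mean over the 9 livers, was 1.22 and 1.16 in vehicle remnants 1 and 2 but -0.28 in remnant 3. It was 0.73, -0.16 and -0.39 in the baseline specimens and -0.96, -0.42 and -0.68 in the NSC remnants. Vehicle remnant 3 was low in *Jun*, *Fosb* and *Atf3* and high in *Fos* and *Junb*. Baseline replicate 1 was the highest of its group in *Fos*, *Fosb*, *Fosl2*, *Jun*, *Jund* and *Atf3*.

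Per length, *Jun* led at baseline with 21.7 ± 10.4 FPKM (SD, n = 3), above *Junb* at 7.72 ± 3.88 without overlap. *Jund* (5.70), *Maff* (3.84), *Atf3* (3.71), *Fos* (3.59) and *Fosl2* (2.68) followed, each overlapping its neighbour, and *Fosb* (0.18) stood below them. In vehicle remnants the mean FPKM placed *Fos* first at 38.1 ± 9.56 and *Junb* next at 29.6 ± 3.54, then *Jun* (18.9), *Atf3* (16.9), *Jund* (4.37), *Fosl2* (3.75) and *Maff* (3.63). These neighbours overlapped, and *Fosb* (0.56) lay apart below. In NSC remnants the order by FPKM was *Junb* (9.58), *Jun* (6.80), *Fos* (6.56), *Jund* (3.23), *Atf3* (3.17), *Fosl2* (2.37) and *Maff* (2.03), again all overlapping, with *Fosb* (0.077) apart.

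The summed FPKM of the FOS family ranged from 3.94 to 10.7 at baseline, from 33.5 to 53.9 in vehicle remnants and from 6.38 to 10.9 in NSC remnants. *Fos* held 63.7%, 52.1% and 38.0% of that sum in the baseline specimens, 90.6%, 87.6% and 91.0% in vehicle remnants, and 54.4%, 75.9% and 81.5% in NSC remnants. Its share was thus higher in the vehicle remnants than in each other liver, and *Fosl2* held most of the remainder. *Fosl2* made up 46.6 ± 14.3%, 8.94 ± 1.14% and 28.6 ± 14.5% of the FOS family in the 3 groups.

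The summed FPKM of the JUN family was 35.1 ± 10.5 at baseline, 52.9 ± 16.6 in vehicle remnants and 19.6 ± 5.10 in NSC remnants. *Jun* made up 59.9 ± 13.7% of it at baseline, 32.7 ± 14.3% in vehicle remnants and 34.7 ± 4.24% in NSC remnants. The share of *Junb* was 23.6 ± 15.8%, 58.9 ± 13.7% and 48.8 ± 6.56%. *Jund* held 16.5 ± 3.99%, 8.40 ± 0.76% and 16.5 ± 2.32%.

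**Figure D4:**
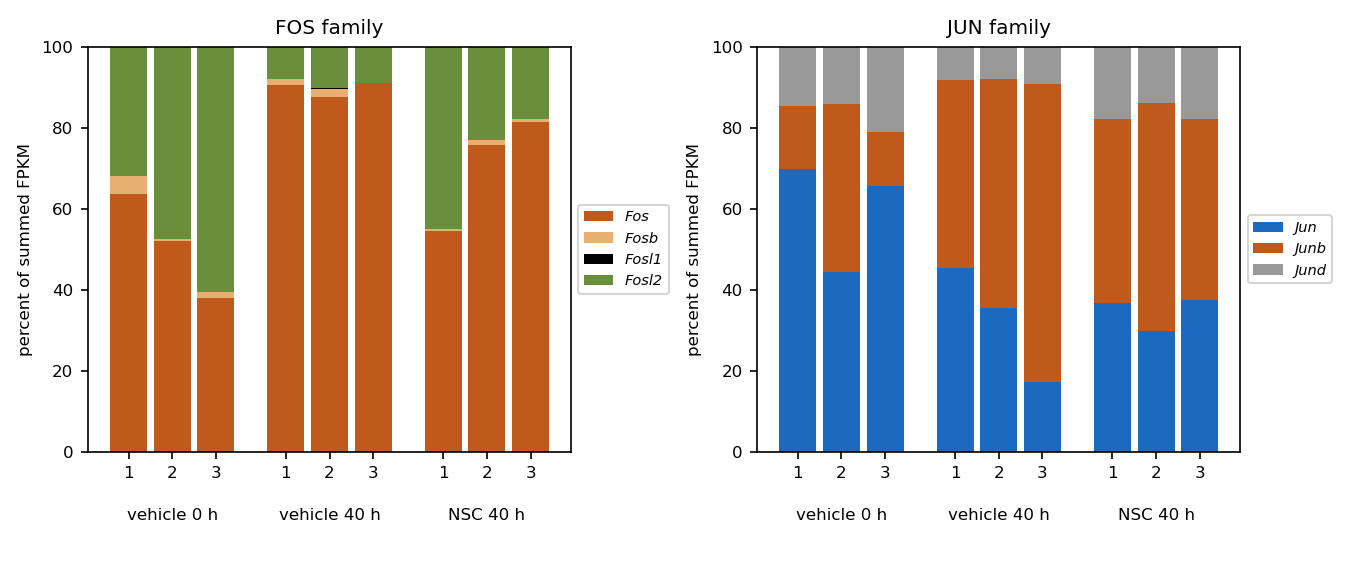
Share of each gene in the summed FPKM of the FOS family (left) and the JUN family (right) in each of the 9 livers, as stacked bars in percent. *Fos* takes 87.6% to 91.0% of its family in vehicle remnants, and *Junb* exceeds *Jun* in all 6 livers at 40 h and in none at 0 h.

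*Jun* exceeded *Junb* in all 3 baseline specimens, with ratios of *Junb* to *Jun* in FPKM of 0.227, 0.943 and 0.203. The ratio was 1.02, 1.59 and 4.25 in vehicle remnants and 1.23, 1.89 and 1.20 in NSC remnants, so *Junb* exceeded *Jun* in all 6 livers at 40 h. On the log2 scale the ratio differed from baseline by 2.44 in vehicle remnants and 2.00 in NSC remnants. A two-sided exact permutation test gave p = 0.1 for each, the smallest that 3 against 3 allows (0.15 adjusted over 3 comparisons), so the design could not reach 0.05. The 40 h groups differed by -0.44 in this log2 ratio (exact permutation p = 0.7), which became 0.14 without vehicle remnant 3. The higher ratio went with a rise of *Junb* in vehicle remnants, and with *Jun* at 3.51-fold below baseline, short of the threshold, in NSC remnants.

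Over the 9 livers the members did not share 1 pattern. As a description of likeness, the root mean square difference of centred log2 CPM was lowest for *Fosl2* with *Jund* and with *Maff* (0.54 each), followed by *Jun* and *Jund* (0.57). It was 0.84 for *Fos* and *Junb*, 1.07 for *Atf3* and *Fosb*, and 1.79, the largest of all pairs, for *Fos* and *Jun*. Genes with small variation are close to each other by this measure, and the SD of log2 CPM over livers was 0.45 for *Fosl2* and 0.54 for *Jund* against 1.91 for *Atf3* and 1.78 for *Fos*.

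By the same measure over 9 livers, the tested genes outside the family nearest to *Fos* were *Btg2* (0.69), *Col6a6* (0.86) and *Socs3* (0.86). The nearest to *Jun* were *Rfx2* (0.41), *Gadd45g* (0.47) and *Slc25a25* (0.47). Those nearest to *Atf3* were *Mmp9* (1.05), *Adam8* (1.09) and *Pdk4* (1.10), which are not close. *Btg2*, an antiproliferative immediate early gene, was measured at 100, 34.8 and 39.1 CPM at baseline, 334, 381 and 164 CPM in vehicle remnants, and 51.1, 77.6 and 43.6 CPM in NSC remnants. Its vehicle remnants lay above the other livers. *Btg2* was picked for its likeness to *Fos* over these same livers, so this order is not a separate observation.

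Among 25 other immediate early genes tested, 10 rose and 2 fell in vehicle remnants (median 0.79 on the log2 scale), led by *Egr2* (5.75), *Ier5* (2.62) and *Socs3* (2.81). Of all tested genes 12.7% rose there. The 2 that fell were *Ppp1r15a* (-0.90) and *Myc* (-1.09). In NSC remnants 5 rose and 5 fell (median -0.47), with *Ier5* (2.58), *Socs3* (1.62) and *Egr2* (2.42) higher, and *Ppp1r15a* (-1.56), *Per1* (-2.24) and *Myc* (-1.35) lower. Of all genes 34.7% passed there in either direction and 16.5% fell. Between the 40 h groups 21 of 25 were lower with NSC, with a median of -1.19 beside -1.67 for the 8 AP-1 members. *Egr2*, a zinc finger factor induced by ERK signalling, was the gene of that list that passed, at -3.33 ± 0.44 (edgeR adjusted p = 0.0470). At an unadjusted p under 0.05 in either direction there were 14 of the 25. Of all genes 10.2% were lower at that p, which leaves out those higher and is not a like share for the 14. DESeq2 and edgeR's exact test called 12 each, against 5.05% and 3.07% of all genes. *Egr2* stood at 4.43, 4.67 and 3.54 CPM in vehicle remnants and 0.510, 0.340 and 0.391 CPM in NSC remnants.

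That call for *Egr2* was lost on scaling by library size alone, after GC correction, where at least 10 counts were required in every library (it was then not tested), and on leaving out baseline replicate 1, vehicle remnant 1 or 2, or NSC replicate 2 or 3. The count of the list was 0 in each of those fits, 7 without vehicle remnant 3 (0.718% of all genes called) and 5 without NSC replicate 1 (6.46%). As with the AP-1 members, the median of the list was high in vehicle remnants 1 and 2 (1.08 and 0.94) and not in remnant 3 (-0.31), on the centred log2 scale.

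**Figure D5:**
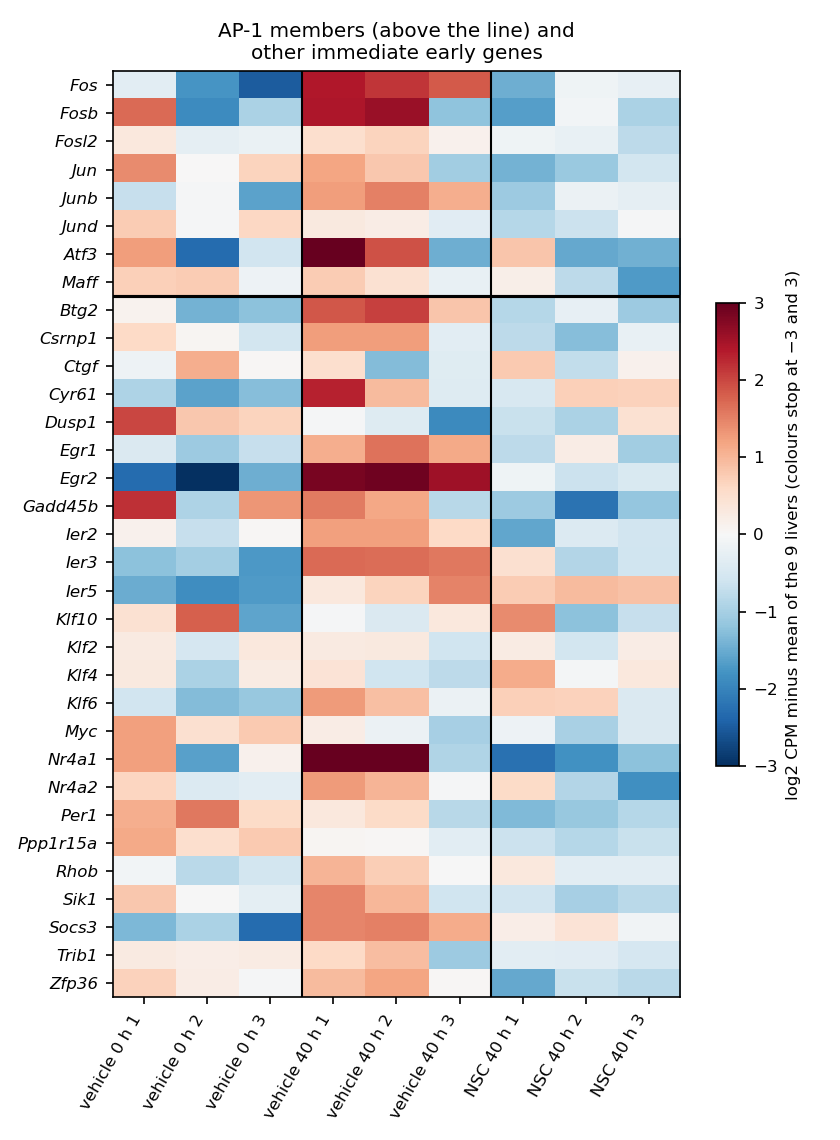
Centred log2 CPM of the 8 tested AP-1 members (above the line) and 25 other immediate early genes in the 9 livers, with colours that stop at -3 and 3. Vehicle remnant 3 is above the mean in *Fos*, *Junb*, *Egr1*, *Egr2*, *Ier3*, *Ier5* and *Socs3* and below it in *Jun*, *Fosb*, *Atf3* and *Nr4a1*.

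Of 33 other bZIP factors, which can pair with or compete with AP-1, 3 rose and 3 fell in vehicle remnants (median 0.016). *Creb3l2* (1.34), *Xbp1* (0.88) and *Ddit3* (2.27), genes of the secretory and unfolded protein response, rose, whereas *Cebpa* (-1.55) and *Mafg* (-0.80) were among those that fell. In NSC remnants 5 rose and 7 fell (median -0.24), led by *Creb3l2* (0.99), *Creb1* (0.81) and *Nfe2l2* (0.67) among the higher and with *Cebpa* (-1.32) and *Mafg* (-0.93) among the lower. *Mafg*, a small MAF gene like *Maff*, thus fell in both groups. Of the 33, 0 differed between NSC and vehicle remnants by edgeR's quasi-likelihood test, 11 at an unadjusted p under 0.05 in either direction, 2 by DESeq2 and 1 by edgeR's exact test. There 10.2% of all genes were lower at an unadjusted p under 0.05, which leaves out those higher and is not a like share for the 11. DESeq2 called 5.05% and the exact test 3.07%. Against baseline 23.7% of all genes passed in vehicle remnants and 34.7% in NSC remnants.

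Among 29 MAP kinases and SRF cofactors, the kinases and factors that switch *Fos* and *Jun* on, 2 rose and 3 fell in vehicle remnants. *Rps6ka3* (1.00) and *Map3k1* (0.66) rose, and *Map2k6* (-2.84), *Rps6ka1* (-1.02) and *Map2k5* (-0.68) fell. In NSC remnants 3 rose and 6 fell, among them *Rps6ka3* (1.28), *Map3k8* (0.81) and *Map3k1* (0.57) upward and *Rps6ka1* (-0.96), *Map2k6* (-2.08) and *Map2k7* (-0.62) downward. In the direct comparison 0 of 29 passed edgeR's quasi-likelihood test, 6 had an unadjusted p under 0.05 in either direction and 1 passed DESeq2, with a median of 0.015. There 10.2% of all genes were lower at an unadjusted p under 0.05, which leaves out those higher and is not a like share for the 6. DESeq2 called 5.05% of all genes. Against baseline 23.7% of all genes passed in vehicle remnants and 34.7% in NSC remnants. Only transcripts were measured, not the phosphorylation through which these kinases act.

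Of 20 tested genes known as AP-1 targets, 12 rose and 1 fell in vehicle remnants (median 1.55), and 10 rose and 1 fell in NSC remnants (median 1.23). Of all genes 23.7% and 34.7% passed in these groups in either direction, and 12.7% rose in vehicle remnants. *Hmox1* (1.51 and 1.30), which degrades heme, and *Gja1* (1.86 and 1.90), a gap junction gene, rose in both. *Ccl2* (3.35), a monocyte chemokine, was among the leading genes in vehicle remnants and *Spp1* (1.35), encoding osteopontin, in NSC remnants. *Vegfa* (-0.85 and -1.37), an endothelial growth factor, fell in both. In the direct comparison 14 of 20 were lower with NSC (median -0.39) and 0 passed edgeR's quasi-likelihood test. At an unadjusted p under 0.05 in either direction there were 5. Of all genes 10.2% were lower at that p, which leaves out those higher and is not a like share for the 5. DESeq2 called 1 target and 5.05% of all genes. Without NSC replicate 1 edgeR's quasi-likelihood test called 6 targets and 6.46% of all genes. Against the shared baseline, 19 of 20 were higher in each 40 h group.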

How the data were processed

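RNA-Seq of whole mouse liver was available for 9 libraries, 3 per group. The authors prepared strand-specific libraries from polyadenylated RNA, aligned reads with STAR 2.6.1 within MAP-RSeq and counted them on genes with featureCounts (Subread 1.5.1). They deposited raw counts per gene and FPKM values, with replicates not pooled. The deposited FPKM equal each count per kilobase of gene (listed length plus 1 base) over the column total: above 1 FPKM, recomputed values differed by a relative 4.96e-10 or less. The submitters' processing notes and the methods name the build hg38, whereas the identifiers and coordinates are mouse ones: 42462 of 43346 genes have their identifier in GENCODE M21 (GRCm38).

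The counts were fitted with edgeR 4.0.16 and, as an alternative, DESeq2 1.42.0 in R 4.3.3, and figures were drawn in Python 3.11.15 with pandas 2.3.3, scipy 1.17.1 and matplotlib 3.10.9. Genes were kept by filterByExpr, libraries scaled by TMM factors, and all 9 libraries entered 1 robust quasi-likelihood fit with the condition as the only term. P-values were adjusted over 15024 genes by the Benjamini-Hochberg method with a threshold of 0.05. Centred values are log2 CPM with a prior count of 2. The fit was tested on simulated data for NSC against vehicle at 40 h. Of 200 genes changed among 15024, it recovered 70 at 2-fold, 177 at 4-fold and 191 at 8-fold. False calls numbered 3, 13 and 15, and the fit called 0 with none changed. Whether these rates hold for the measured libraries was not tested. In the measured libraries *Fos* and *Fosb* did not pass in this comparison. There 994 genes were called without NSC replicate 1 and 0 without NSC replicate 2. Pairs of libraries of 1 group differed by a chi-square of 24.9 to 151 per gene, well above sampling noise, and none was a duplicate.

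The members and gene lists were chosen with earlier results of these data known. All 9 members were named. From each list, cell type markers included, the genes named are, against baseline, up to 3 that rose and 3 that fell, in order of adjusted p, and between the 40 h groups every called gene; 2 genes that this rule names are not reported here. The genes nearest in pattern are the 3 closest to *Fos*, *Jun* and *Atf3*. Lists of erythroid and lymphoid markers were also computed: their sums were 225 to 327, 105 to 185 and 129 to 230 CPM, and 2.90 to 9.70, 1.29 to 2.70 and 2.64 to 3.33 CPM, in the 3 groups. *Alas2* (-1.83 and -1.60) fell in both 40 h groups and *Cd3g* (-2.46) in vehicle remnants.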

Additional observations from a re-analysis of the deposited data

How the results depend on the processing

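The call of *Fos* and *Junb* in vehicle remnants held under all 19 alternatives (2 members called in each), with log2 fold changes of 3.02 to 4.24 and 1.62 to 2.36. These alternatives called 7.22% to 30.5% of all genes. For NSC remnants against baseline the number of members called was 1 (34.7% of all genes). It became 3 with DESeq2 (38.1%) and with edgeR's exact test (36.4%), namely *Jun*, *Jund* and *Maff*. It was 2 with at least 10 counts in every library (36.9%) and 2 with only the 2 groups compared (31.7%). It was 0 after GC correction (30.4%) and 0 with a log2 fold change over 1.5 required (8.13%). On leaving out 1 library it was 0 to 2 (23.4% to 33.9%). Between the 40 h groups the number was 0 (0.0399% of all genes), and it became 3 with DESeq2 (5.05%) and 3 with edgeR's exact test (3.07%). With only the 2 groups compared it was 1 (*Junb*, edgeR adjusted p = 0.0446), against 0.0414% of all genes. On leaving out 1 library it was 0 to 2. The share of all genes then ran from 0% to 6.46%, with 994 genes called without NSC replicate 1 and 111 without vehicle remnant 3. The cause of these shifts was not tested.

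The replicate number was not taken to pair the samples, since no source ties same-numbered samples to 1 mouse. Correlations of deviations from group means ran from -0.048 to 0.134 between same-numbered samples, where the next highest after 0.134 was 0.092. Between samples with different numbers they ran from -0.115 to 0.066. The highest, 0.134, was between vehicle remnant 1 and NSC remnant 1. A weak structure by replicate number is thus not excluded. With the replicate block 2 members were called in vehicle remnants, 2 in NSC remnants (*Jund* and *Maff*, the latter at -1.18 with adjusted p = 0.00419) and 0 between the 40 h groups. That fit called 23.8%, 34.5% and 0.0732% of all genes in these comparisons.

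Directions turned only on leaving out 1 library, and only for changes that did not pass. These were *Jun* in vehicle remnants (0.21 without baseline replicate 1, 0.20 without vehicle remnant 3, range -0.65 to 0.21), *Maff* in vehicle remnants (0.012 and 0.054 without baseline replicates 1 and 2, 0.12 without vehicle remnant 3, range -0.34 to 0.12), *Fosb* (0.76, range -2.01 to 0.76) and *Atf3* (0.95, range -1.63 to 0.95) in NSC remnants without baseline replicate 1, *Junb* in NSC remnants (-0.13 without baseline replicate 3, range -0.13 to 0.61) and the *Junb* to *Jun* ratio between the 40 h groups (0.14 without vehicle remnant 3, range -0.89 to 0.14, a check chosen after seeing the data). Among the log2 fold changes of members under the alternatives, 420 kept direction and side of the threshold, 19 passed it newly and 5 no longer did. *Fosb* was not tested where 10 counts in every library were required, nor with only NSC remnants and baseline in the fit. With 3 livers per group, members whose replicates spread as widely as *Atf3* and *Fosb* were measured with standard errors over 1 on the log2 scale.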
